A study of Mus musculus with 6 samples.

Results

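Chromatin and DNA methylation regulators are the enzymes and complex subunits that write, read and erase marks on histones and DNA, or that move nucleosomes and fold chromosomes. A list of 57 such genes was taken by symbol from the table of gene values, and each of the 57 had exactly 1 row among the 14868 genes. The cells were naïve CD4+ T cells of C57BL/6J background, either WT or Ikzf4-/-, with 3 RNA-seq libraries of each genotype. Ikzf4 encodes Eos, a zinc finger transcription factor of the Ikaros family. Both genotypes received the same culture: plates coated with anti-CD3 (5 µg/mL) and anti-CD28 (2 µg/mL), with 10 ng/mL IL-4 and 10 µg/mL anti-Ifng to drive the T helper 2 (Th2) fate, harvested at 72 h. The labels give neither the form of the Ikzf4 deletion nor the age, sex or number of mice behind each library. P-values therefore measure the spread between these libraries, which may be technical in part.

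As background, Th2 cells open the cytokine genes Il4, Il5 and Il13 and close those of other helper fates, and both steps are written into chromatin. Polycomb complexes silence genes through methylation of histone H3 on lysine 27 (H3K27) and ubiquitylation of histone H2A. Trithorax complexes with KMT2 enzymes counter them through methylation on lysine 4. DNA methyltransferases (Dnmt) add methyl groups to cytosine and Tet enzymes oxidise them on the way to removal. Ikaros-family proteins are known partners of the NuRD complex, which joins a nucleosome remodeller to histone deacetylases.

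Of the 57 regulators, 1 passed the test between genotypes. Men1, which encodes menin, the scaffold of KMT2A complexes, fell by 0.29 on the log2 scale in Ikzf4-/- cells, an 18.2% lower level (95% confidence interval 10.6% to 25.1%). The other 56 were not called. Limma called 1.77% of the 14864 genes tested (1.20% as lower) and 2.36% of the genes with a mean of at least 400. The 1 of 57 was thus close to the background. The authors' deposited table gave 5 of the 57 an adjusted p-value under 0.05, against 6.34% of the genes with an adjusted p-value there. Among genes with a mean of at least 400, which 56 of the members had, that share was 7.29%. The 5 members were Men1, lower (background 3.89%), and Kdm6b, Tet2, Dnmt3a and Scmh1, higher (background 2.45%). The same 5 members had a limma adjusted p-value under 0.1, against 5.07% of all genes tested and 577 of the 8555 genes with a mean of at least 400. Members whose values did not overlap between genotypes numbered 18, of which 13 were higher and 5 lower in Ikzf4-/- cells, against 23.1% of all genes tested (11.0% higher and 12.2% lower) and 26.4% of the genes with a mean of at least 400. An unadjusted limma p-value under 0.05 was found for 16 members, against 18.1% of all genes tested and 21.4% of the genes with a mean of at least 400.

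**Figure D1:**
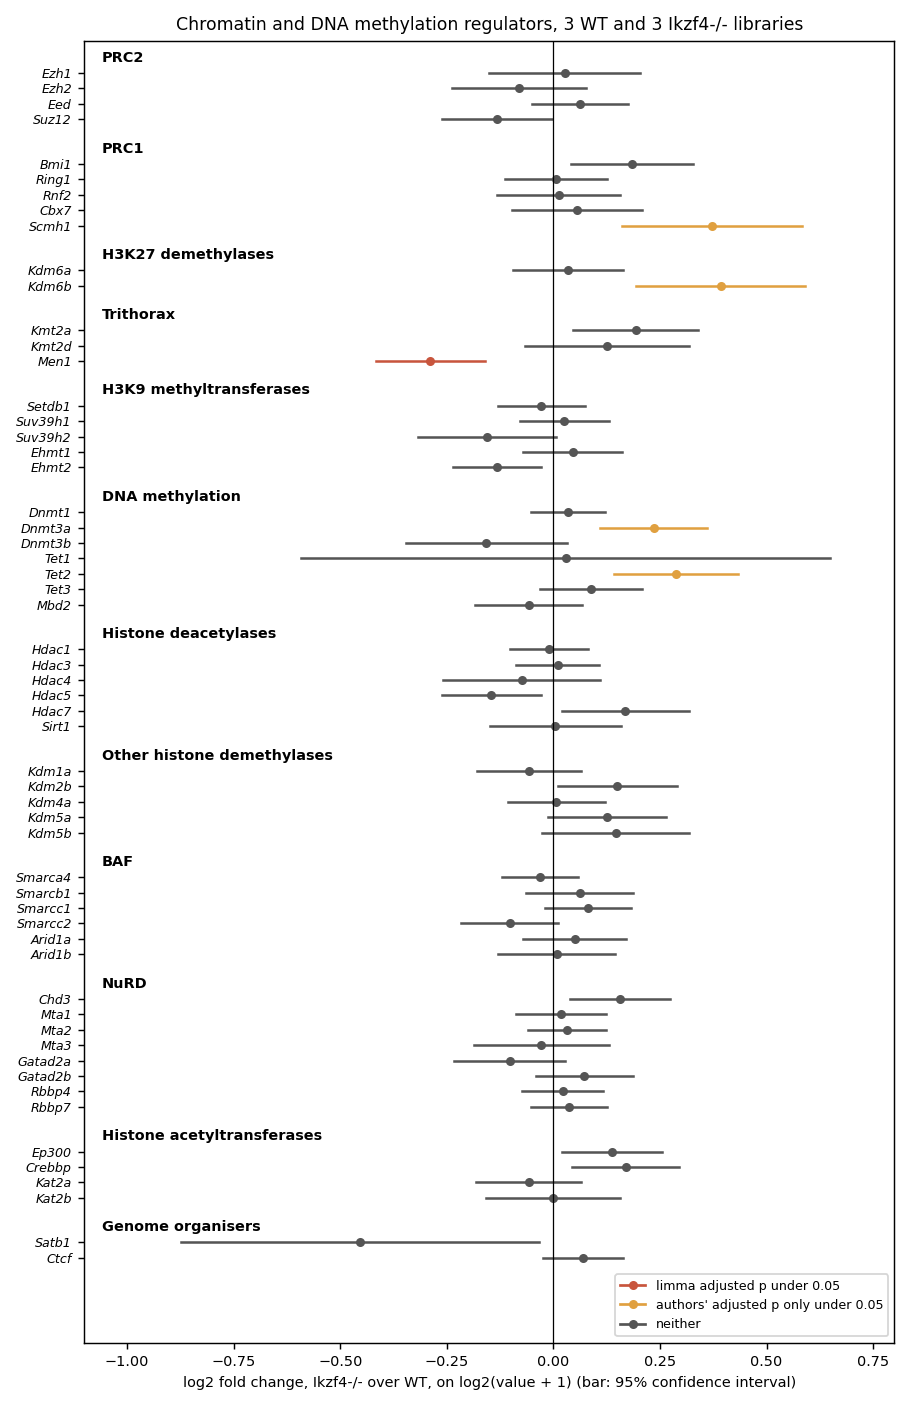
Log2 fold change (Ikzf4-/- over WT, x axis) of each of the 57 members, grouped by role, with bars for the 95% confidence interval from limma (3 libraries per genotype). Men1 lies at -0.29 with an interval wholly below 0, the 4 members in orange lie between 0.24 and 0.39, and most others lie near 0.

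The fitted changes were small. The median log2 fold change of the 57 was 0.03 and the median absolute change 0.07, against 0.00 and 0.07 over all genes with a mean of at least 400. A change of 1.5-fold in either direction lay outside the 95% confidence interval for 54 of the 57. The exceptions were Kdm6b, whose interval reached 0.59, Satb1, whose interval reached down to -0.87, and Tet1, a low gene with an interval from -0.59 to 0.65. The fitted value was above 0 for 38 members and below 0 for 19, while 51.3% of all genes tested lay above 0. Within genotypes, the median coefficient of variation was 5.01% in WT and 3.91% in Ikzf4-/- libraries. Exons of 27 members overlap those of another annotated gene, for 17 of them a gene of the table, while Men1 and Scmh1 have no such overlap.

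The labels were checked on Ikzf4 (ENSMUSG00000002578), which had a normalized read count from 483 to 756 in WT and from 10.5 to 38.2 in Ikzf4-/- libraries. Reads summed over the genes of the table ran from 34701390 to 40604346 per library, as implied by the steps of the values. All 8 CD4 T cell markers were present at 5535 or more in every library, and 1 of them, Cd5, was called (log2 fold change 0.33, higher in Ikzf4-/- cells). Of 7 Th2 markers, 4 were called by limma (Il4, Il13, Il4ra and Ccr8), all lower in Ikzf4-/- cells. Il5 had the largest fall of the 7 (log2 fold change -1.24) without overlap, but was not called (limma adjusted p = 0.0529). The authors' deposited table gave adjusted p-values of 0.00209 for Il5 and 0.0600 for Il4ra. Gata3 was not called (log2 fold change -0.24, limma adjusted p = 0.146), while the authors' deposited table gave it an adjusted p of 0.0386. Of the 6 B cell, 8 myeloid and 4 NK cell markers, 2, 2 and 1 had a row, with no value above 299, and the 2 CD8 T cell genes summed to at most 423. None of the 14 cell division markers was called by limma, though their summed value was lower in each Ikzf4-/- library (208293 to 214156) than in each WT library (215760 to 220122). The part of these markers in the results below was not tested. The first principal component (40.2% of the variance) separated the genotypes. WT libraries lay at -41.3, -12.5 and -5.26, and Ikzf4-/- libraries at 11.1, 17.1 and 30.8. WT replicate 1 stood apart at the WT end, and it was the highest or the lowest of the 6 libraries for 30 of the 57 members. Ikzf4-/- replicate 3 lay at the other end of that component and was the highest library for 20 members and the lowest for 6. In bulk RNA, fewer cells of a type and less RNA per cell cannot be told apart.

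The promoters of 4 of the 5 members with a limma adjusted p-value under 0.1 are shown because the comparison turns on these genes. The windows are the 250 bases upstream of a RefSeq transcript start on GRCm38.p6, written 5′ to 3′ on the gene's strand, and a window was matched for 50 of the 57 members. That start lies 0 (Men1), 749 (Tet2), 973 (Dnmt3a) and 67 (Scmh1) bases from the gene start in the GENCODE annotation. Among the 50 the distance reaches 42669 bases (Sirt1), so some windows are not at the annotated gene start. Capitals mark GGGAA on either strand (TTCCC on the strand shown), the core letters bound by Ikaros-family proteins, which contain the GGAA core of ETS factors.
Men1, chr19:6334729-6334978, plus strand: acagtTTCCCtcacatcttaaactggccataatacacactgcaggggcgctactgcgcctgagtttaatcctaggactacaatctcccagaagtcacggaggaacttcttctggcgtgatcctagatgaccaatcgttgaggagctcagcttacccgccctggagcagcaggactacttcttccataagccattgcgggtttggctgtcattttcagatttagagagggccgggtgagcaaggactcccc
Tet2, chr3:133544391-133544640, minus strand: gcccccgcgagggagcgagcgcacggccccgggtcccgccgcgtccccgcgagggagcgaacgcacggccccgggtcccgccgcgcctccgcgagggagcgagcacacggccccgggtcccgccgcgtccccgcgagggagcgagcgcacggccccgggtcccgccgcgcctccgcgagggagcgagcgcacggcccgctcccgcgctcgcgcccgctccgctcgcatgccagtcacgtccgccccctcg
Dnmt3a, chr12:3806730-3806979, plus strand: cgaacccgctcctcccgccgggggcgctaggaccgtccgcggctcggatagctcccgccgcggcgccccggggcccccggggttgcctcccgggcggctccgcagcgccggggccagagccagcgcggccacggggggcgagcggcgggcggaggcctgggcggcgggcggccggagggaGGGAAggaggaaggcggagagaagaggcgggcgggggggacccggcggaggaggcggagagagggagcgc
Scmh1, chr4:120405098-120405347, plus strand: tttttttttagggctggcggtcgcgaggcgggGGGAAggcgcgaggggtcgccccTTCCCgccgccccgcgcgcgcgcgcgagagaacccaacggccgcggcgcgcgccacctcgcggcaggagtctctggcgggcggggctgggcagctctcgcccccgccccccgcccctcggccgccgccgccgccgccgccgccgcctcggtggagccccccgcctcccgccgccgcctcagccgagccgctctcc

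The Men1 window had 52.0% G and C and 8 CpG dinucleotides, while the Tet2, Dnmt3a and Scmh1 windows had 83.6%, 82.4% and 81.6% G and C and 51, 38 and 45 CpG. GGGAA on either strand was in 27 of the 50 member windows (54.0%) and in 58.3% of 10287 windows of the same length from all tested genes with one. A match is a run of letters and not a measured binding site.

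Among the Trithorax genes, Men1 was lower and the KMT2 enzymes were not. Men1 (ENSMUSG00000024947, chromosome 19, 6334979 to 6340891 on the plus strand of GRCm38) encodes menin, which tethers KMT2A to chromatin and has been described as a factor that keeps Gata3 active in Th2 cells. In normalized read counts, given here and below in the order of replicates 1 to 3, Men1 stood at 3841, 3544 and 3703 in WT and at 2862, 3234 and 2986 in Ikzf4-/- libraries. Each Ikzf4-/- library lay below each WT library. The mean fell from 3696 ± 149 to 3027 ± 189 (SD, n = 3 each), or -0.29 ± 0.06 (SE) on the log2 scale (limma adjusted p = 0.0403). The log2 fold change stayed between -0.34 and -0.25 in the fits without 1 library. The call was lost without WT replicate 1 (limma adjusted p = 0.0547), WT replicate 2 (0.0643), Ikzf4-/- replicate 1 (0.109) or Ikzf4-/- replicate 3 (0.136), and held without either of the other two. The authors' deposited table gave Men1 a log2 fold change of -0.29 with an adjusted p of 0.00132.

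Kmt2a, the histone H3 lysine 4 methyltransferase that menin binds, had counts of 4774, 4866 and 4876 in WT and 5546, 4989 and 6113 in Ikzf4-/- libraries. The genotypes did not overlap, but Kmt2a was not called (log2 fold change 0.19, limma adjusted p = 0.158). Its WT values were tight and its Ikzf4-/- values spread, with Ikzf4-/- replicate 2 next to the WT libraries. Kmt2d, the enhancer methyltransferase, overlapped between genotypes, with means of 6057 ± 320 in WT and 6652 ± 924 in Ikzf4-/- libraries (SD, n = 3 each).

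**Figure D2:**
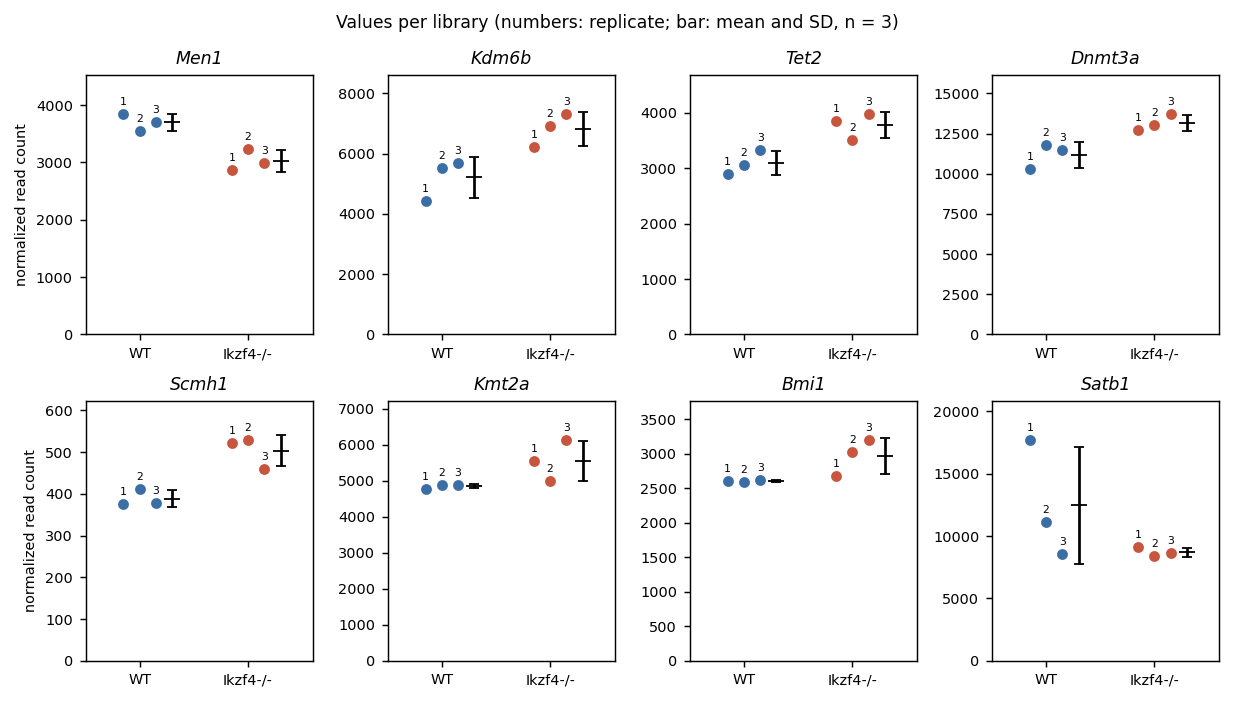
Normalized read count (y axis, from 0) in each of the 3 WT and 3 Ikzf4-/- libraries for 8 members, with replicate numbers beside the points and a bar for mean and SD. Men1 is lower in each Ikzf4-/- library, 6 members are higher in each, and the Satb1 difference comes with a WT replicate 1 value of 17660.

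Neither of the 2 enzymes that remove H3K27 methylation was called. Kdm6b (JMJD3; chromosome 11, 69398508 to 69413675 on the minus strand) is inducible and lifts Polycomb silencing during helper cell differentiation. Its count was 4436, 5523 and 5683 in WT and 6222, 6919 and 7313 in Ikzf4-/- libraries. All 3 Ikzf4-/- libraries were above all WT libraries, and WT replicate 1 was the lowest. The means were 5214 ± 679 and 6818 ± 552 (SD, n = 3 each), with a fitted log2 fold change of 0.39 (SE 0.09), the highest of the 57. Kdm6b missed the threshold (limma adjusted p = 0.0572) and ranged from 0.0289 to 0.195 in the fits without 1 library. Without WT replicate 1, the lowest library, it was 0.0455. The authors' deposited table gave an adjusted p of 0.000535 for Kdm6b. Exons of the antisense gene Kdm6bos, whose mean count was 49.8, cover 286 bases of Kdm6b exons, and how the reads were assigned to strands is not given in the sources used here. Kdm6a (UTX), its X-linked relative, had means of 1504 ± 40.8 and 1541 ± 60.6 (SD, n = 3 each; log2 fold change 0.03, 95% confidence interval -0.10 to 0.16).

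None of the 4 genes of the Polycomb repressive complex 2 (PRC2) core was called. Ezh2, its main methyltransferase in dividing cells, had means of 11469 ± 1293 in WT and 10802 ± 461 in Ikzf4-/- libraries (SD, n = 3 each; log2 fold change -0.08, 95% confidence interval -0.24 to 0.08). Ezh1, the alternative enzyme of resting cells, and Eed, the subunit that reads the mark, had log2 fold changes of 0.03 and 0.06. Suz12, the scaffold, had counts of 10066, 8986 and 8720 in WT and 8127, 8400 and 8783 in Ikzf4-/- libraries. The Suz12 values overlapped, WT replicate 1 being the high one, and the log2 fold change of -0.13 (95% confidence interval -0.26 to -0.00300) was not called (limma adjusted p = 0.266). Without WT replicate 1 it was -0.07.

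In Polycomb repressive complex 1 (PRC1), which ubiquitylates histone H2A, all 5 members had fitted values above 0 and none was called. Scmh1 (ENSMUSG00000000085), a Scm-family PRC1 protein, had counts of 375, 412 and 378 in WT and 522, 528 and 460 in Ikzf4-/- libraries. These did not overlap, and the fitted value of Scmh1 was 0.37 ± 0.10 (SE) on the log2 scale, which was not called (limma adjusted p = 0.0789). The authors' deposited table gave Scmh1 an adjusted p of 0.0342. Bmi1, the PRC1 ring finger partner, was nearly constant in WT at 2599, 2589 and 2612, and stood at 2672, 3026 and 3191 in Ikzf4-/- libraries (log2 fold change 0.18, limma adjusted p = 0.167). The Ikzf4-/- libraries thus lay just above WT in 1 case and clearly above in the others. The ubiquitin ligases Ring1 and Rnf2 and the chromodomain reader Cbx7 had log2 fold changes of 0.01, 0.01 and 0.06. In the fits without 1 library these ran from -0.02 to 0.03, from -0.04 to 0.04 and from -0.00367 to 0.12, so each changed sign.

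None of the 7 DNA methylation genes was called. Dnmt3a, the main de novo methyltransferase of T cells, known for restraining cytokine gene plasticity, had counts of 10269, 11782 and 11491 in WT and 12713, 13016 and 13709 in Ikzf4-/- libraries. WT replicate 1 was the lowest, and the genotypes did not overlap. The fitted value of Dnmt3a was 0.24 ± 0.06 (SE) on the log2 scale and was not called (limma adjusted p = 0.0647). Without WT replicate 1 the adjusted p was 0.105. Its paralogue Dnmt3b stood lower in each Ikzf4-/- library, at 507, 495 and 527 against 542, 613 and 554 in WT (log2 fold change -0.16, limma adjusted p = 0.365).

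Tet2, the DNA demethylase linked to cytokine expression in helper cells and to restraint of T cell expansion, had counts of 2888, 3064 and 3334 in WT and 3845, 3516 and 3976 in Ikzf4-/- libraries. There was no overlap, and Ikzf4-/- replicate 2 was nearest to WT. The fitted value of Tet2 was 0.29 ± 0.07 (SE) on the log2 scale and was not called (limma adjusted p = 0.0556). It was called with equal library totals (0.0488), array weights (0.0387) and the replicate block (0.0199). In the fits without 1 library the adjusted p ran from 0.0246, without WT replicate 3, to 0.189, without Ikzf4-/- replicate 3, and only the former was under 0.05. The authors' deposited table gave adjusted p-values of 0.00361 for Tet2 and 0.00698 for Dnmt3a. Tet3, the other abundant Tet gene, had a log2 fold change of 0.09 (95% confidence interval -0.03 to 0.21). Tet1 was low, from 59 to 110 in all libraries.

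Dnmt1, which copies methylation at replication, was the steadiest of these enzymes, at 26811, 26718 and 25908 in WT and 27101, 27253 and 26999 in Ikzf4-/- libraries. The values do not overlap, yet the log2 fold change was 0.03 with a 95% confidence interval from -0.05 to 0.12 (limma adjusted p = 0.706). Mbd2, a reader of methylated DNA that helps silence Th2 cytokine genes, had a log2 fold change of -0.06 (95% confidence interval -0.19 to 0.07).

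Of the enzymes that methylate histone H3 on lysine 9, a mark of silent chromatin, none of 5 was called. Ehmt2 (G9a), known for a role in Th2 cytokine expression, had counts of 9033, 8470 and 8324 in WT and 7989, 7924 and 7636 in Ikzf4-/- libraries. Each Ikzf4-/- library was lower, by a log2 fold change of -0.13 that did not pass (limma adjusted p = 0.167). Suv39h2 was also lower in each, at 650, 619 and 626 against 688, 722 and 701 (log2 fold change -0.16, limma adjusted p = 0.293). Exons of Dclre1c on the other strand (mean count 609) cover 357 bases of Suv39h2 exons, and the part of that overlap was not tested. Suv39h1, which is known to stabilise the Th2 fate, had a log2 fold change of 0.03 with a 95% confidence interval from -0.08 to 0.13. Setdb1 and Ehmt1, the partner of Ehmt2, had log2 fold changes of -0.03 and 0.05.

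The histone deacetylases showed no called gene. Hdac1, the catalytic subunit shared by NuRD and Sin3 complexes, had means of 16048 ± 498 and 15925 ± 19.8 (SD, n = 3 each; log2 fold change -0.01, 95% confidence interval -0.10 to 0.08). Among the class IIa enzymes, which shuttle between nucleus and cytoplasm, Hdac5 had counts of 1996, 1913 and 2010 in WT and 1784, 1761 and 1805 in Ikzf4-/- libraries (log2 fold change -0.15, limma adjusted p = 0.175). Every Ikzf4-/- value of Hdac5 was below every WT value. Hdac7 had means of 14978 ± 1498 and 16797 ± 779 (SD, n = 3 each) and overlapped, with a log2 fold change of 0.17 that was not called (limma adjusted p = 0.217). Hdac7 was called only in the fit without WT replicate 3 (0.0462). Hdac3, the enzyme of NCoR complexes, Hdac4 and the NAD-dependent Sirt1 had log2 fold changes of 0.01, -0.07 and 0.00.

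Of the other demethylases, Kdm2b, which also brings a PRC1 variant to CpG islands, had counts of 9471, 11280 and 11057 in WT and 11822, 11446 and 11924 in Ikzf4-/- libraries. The values did not overlap, with WT replicate 1 the lowest, and the log2 fold change was 0.15 (limma adjusted p = 0.242). Without WT replicate 1 that of Kdm2b was 0.07. Exons of Rnf34 on the other strand (mean count 1114) cover 627 bases of Kdm2b exons, and the part of that overlap was not tested. The lysine 4 demethylases Kdm1a (LSD1), Kdm5a and Kdm5b had log2 fold changes of -0.06, 0.13 and 0.15, and Kdm4a, which acts on lysines 9 and 36, had 0.01. None of these 4 passed the test or separated the genotypes.

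The BAF remodelling complex slides and ejects nucleosomes. None of its 6 members was called, and their log2 fold changes ran from -0.10 to 0.08. The ATPase Smarca4 (BRG1) had means of 10442 ± 195 and 10220 ± 77.3 (SD, n = 3 each; log2 fold change -0.03, 95% confidence interval -0.12 to 0.06). Smarcc1, a core scaffold, had counts of 8119, 8123 and 7891 in WT and 8296, 8302 and 8931 in Ikzf4-/- libraries (log2 fold change 0.08, limma adjusted p = 0.389). Its paralogue Smarcc2 had counts of 9523, 9285 and 8455 in WT and 8627, 8457 and 8274 in Ikzf4-/- libraries (log2 fold change -0.10, limma adjusted p = 0.326). Smarcc2 overlapped between genotypes through WT replicate 3. It is the member nearest to the targeted gene, 140361 bp from Ikzf4 on chromosome 10 (128459248 to 128490482 on GRCm38), and the part of that position in its value was not tested. The small core subunit Smarcb1 and the DNA-binding subunits Arid1a and Arid1b had log2 fold changes of 0.06, 0.05 and 0.01.

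None of the 8 NuRD members was called either. The remodeller Chd3 was highest in fitted change (0.16, limma adjusted p = 0.157), with counts of 10288, 11011 and 11554 in WT and 11586, 12455 and 12548 in Ikzf4-/- libraries. The gap between genotypes was narrow, since WT replicate 3 and Ikzf4-/- replicate 1 lay side by side. The MTA scaffolds Mta1, Mta2 and Mta3 had log2 fold changes of 0.02, 0.03 and -0.03. The histone chaperones Rbbp4 and Rbbp7, also PRC2 subunits, had 0.02 and 0.04, and the bridging subunits Gatad2a and Gatad2b had -0.10 and 0.07. For Rbbp4, Rbbp7, Mta1 and Mta2 the 95% confidence intervals stayed within -0.09 and 0.13.

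The acetyltransferases Ep300 (p300) and Crebbp (CBP), paralogues that acetylate enhancers, were each higher in every Ikzf4-/- library without passing the test. Ep300 had counts of 4952, 5128 and 4524 in WT and 5384, 5249 and 5408 in Ikzf4-/- libraries (log2 fold change 0.14, limma adjusted p = 0.206). Crebbp had 1391, 1477 and 1401 in WT and 1622, 1567 and 1611 in Ikzf4-/- libraries (log2 fold change 0.17, limma adjusted p = 0.147). Kat2a (GCN5) and Kat2b (PCAF), acetyltransferases of the SAGA and ATAC complexes, had log2 fold changes of -0.06 and 0.00.

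Satb1, which folds the Th2 cytokine locus into loops, had the lowest fitted change of the 57 but the widest spread in WT. Its counts were 17660, 11116 and 8590 in WT and 9083, 8398 and 8606 in Ikzf4-/- libraries. WT replicate 1 was high, and WT replicate 3 lay among the Ikzf4-/- libraries. The fitted difference of -0.45 ± 0.19 (SE) on the log2 scale (limma adjusted p = 0.241) became -0.17 without WT replicate 1 (0.404) and -0.69 without WT replicate 3 (0.0326). The value thus moved with either of these WT libraries. Ctcf, the boundary factor of chromosome loops, had counts of 7521, 7475 and 7129 in WT and 7760, 7674 and 7771 in Ikzf4-/- libraries (log2 fold change 0.07, limma adjusted p = 0.435).

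**Figure D3:**
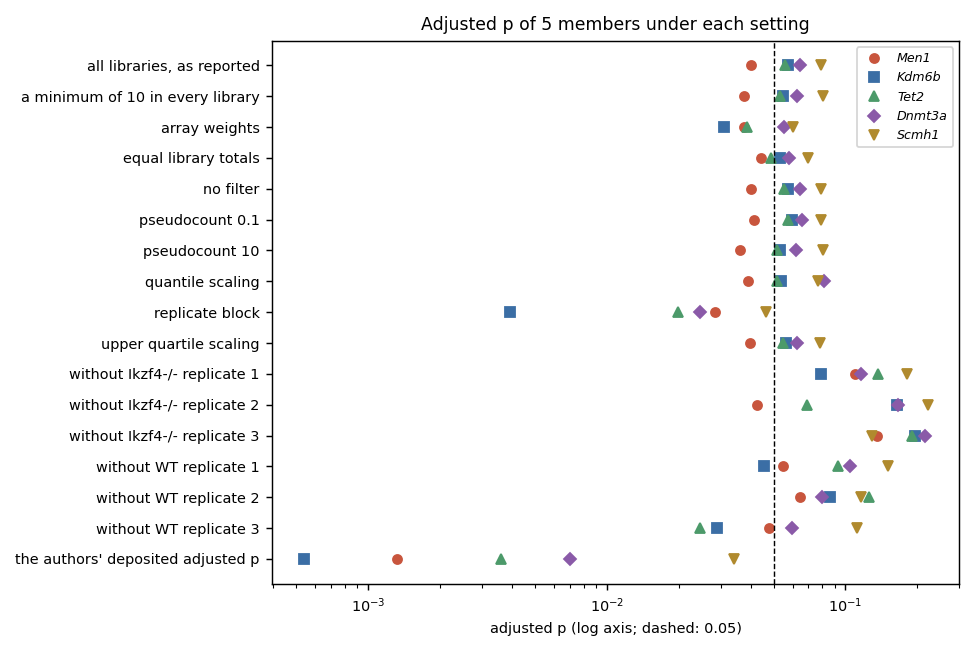
Adjusted p-value (x axis, log scale, dashed line at 0.05) of Men1, Kdm6b, Tet2, Dnmt3a and Scmh1 under each processing setting (y axis). Men1 is left of the line with all libraries and right of it in 4 of the 6 fits without 1 library, and all 5 are left of it in the authors' deposited table and with the replicate block.

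Levels of different genes were compared per kilobase of annotated exon, in WT libraries. Rbbp7 (4866 ± 115 per kb) and Hdac1 (4658 ± 144) were highest and did not differ beyond their spread, nor did Dnmt1 (3589 ± 67.3) and Mta2 (3521 ± 95.5), the next pair (SD, n = 3 each). Mta1 (2463 per kb) and Hdac7 (2217 per kb) followed. The lowest were Tet1 (5.09 per kb), Scmh1 (50.2 per kb), Hdac4 (91.5 per kb), Crebbp (105 per kb) and Dnmt3b (112 per kb). With the length of the longest transcript in place of all exons, Hdac1 (7875 per kb) stood above Rbbp7 (6308 per kb), and 9 of the 10 highest genes were in the top 10 by both lengths.

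**Figure D4:**
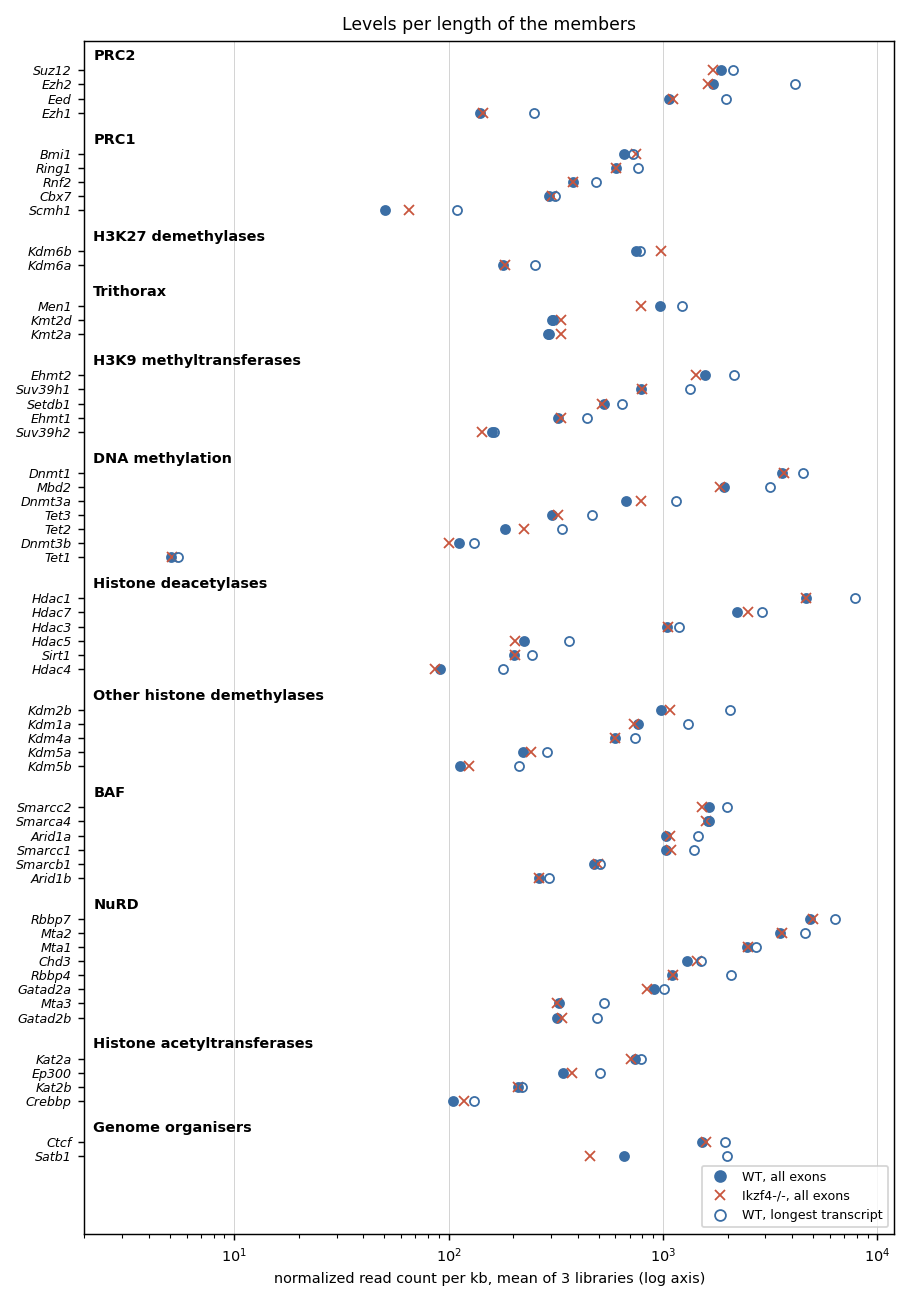
Normalized read count per kilobase (x axis, log scale; mean of 3 libraries) of each member by role, for WT and Ikzf4-/- with all annotated exons and for WT with the longest transcript. Levels per kb run from 5.09 for Tet1 to 4866 for Rbbp7 in WT, and the genotypes lie close together for most members.

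Related genes of the same family, some of which act in place of each other and some together, were compared as a ratio of levels per kb within each library. Ezh2 exceeded Ezh1 by 12.2-fold in WT and 11.3-fold in Ikzf4-/- libraries, Dnmt3a exceeded Dnmt3b by 6.02-fold and 7.91-fold, and Ep300 exceeded Crebbp by 3.24-fold and 3.17-fold. With the length of the longest transcript these folds were 16.5 and 15.3, 8.75 and 11.5, and 3.86 and 3.78. Their size thus depends on the length used. The ratio separated the genotypes for 6 of 14 pairs. Single genes did so in 23.1% of all genes tested and in 31.6% of the members, but a single gene is another measure than a ratio. The share for ratios of other gene pairs was not computed, so the 6 of 14 have no background to be read against. For Dnmt3a/Dnmt3b the log2 ratio was 2.54, 2.56 and 2.67 in WT and 2.94, 3.01 and 3.00 in Ikzf4-/- libraries, a difference of 0.39. The separation of this pair followed from its single genes, since every Ikzf4-/- library was above WT for Dnmt3a and below WT for Dnmt3b. The difference was -0.36 for Kdm6a/Kdm6b, 0.18 each for Smarcc1/Smarcc2 and Suv39h1/Suv39h2, and -0.18 each for Ehmt2/Ehmt1 and Gatad2a/Gatad2b. For these 6 pairs the exact two-sided permutation test over 3 against 3 libraries gave p = 0.10, the smallest it can give, and 0.23 after Benjamini-Hochberg adjustment over 14 pairs. Rbbp4/Rbbp7 and Mta2/Mta1 kept nearly the same ratio, with differences of -0.02 and 0.02.

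**Figure D5:**
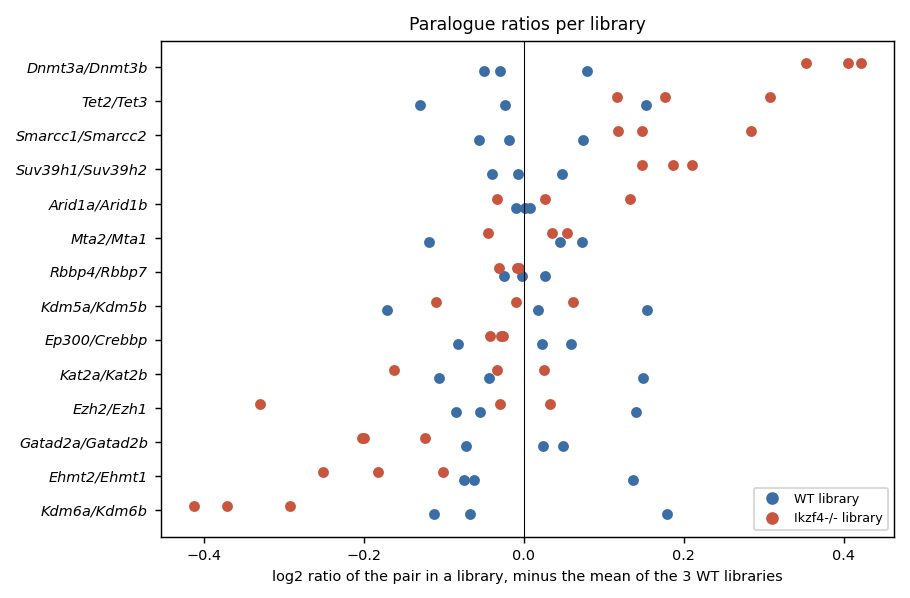
Log2 ratio of 14 paralogue pairs in each library (x axis), set to 0 at the WT mean of the pair, with WT libraries in blue and Ikzf4-/- libraries in red. Dnmt3a/Dnmt3b lies highest and Kdm6a/Kdm6b lowest among Ikzf4-/- libraries, and 6 pairs separate by genotype.

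A further 172 genes were examined from 10 lists of other Polycomb, Trithorax, methylation, deacetylase, demethylase, BAF, NuRD, acetyltransferase and cohesin genes. Limma called 0 of the 172, against 1.77% of all genes tested, with 31 at an unadjusted p-value under 0.05 (17 lower and 14 higher), against 18.1%. The authors' deposited table had 7 of them (4.07%) at an adjusted p-value under 0.05, 3 lower and 4 higher, against 6.34% of all genes with one. Their median log2 fold change was 0.01. Beside them, the 57 members had a median of 0.03.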

How the data were processed

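Total RNA of 3 WT and 3 Ikzf4-/- libraries was sequenced, with groups and replicate numbers taken from the labels. The authors deposited 1 table of normalized read counts, a never-negative signal per gene, with log2 fold changes (Ikzf4-/- over WT) and p-values, adjusted and unadjusted, in the same deposited table. The submitters' processing notes name Trimmomatic 0.36, STAR 2.5.2b, DESeq2 and GRCm38 (mm10). The counting tool, its use of strand and the annotation are not given in the sources used here. Values rose in even steps within each library, and the steps gave the depth. The lowest gene of the table held 61 implied reads over all libraries.

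After a filter at a mean of 10 or more, log2(value + 1) was computed and genotype was fitted with limma 3.58.1 (R 4.3.3, trend of variance with mean). The two-sided p-values were corrected across the 14864 genes by the Benjamini-Hochberg method, with calls at an adjusted p under 0.05. Fold changes on this scale understate the change of low genes. The fit was tested on simulated data. No test on counts was run. The lower values of every library were whole multiples of its step, but in a pair of Ikzf4-/- libraries the step was close to 1. The recovered reads were therefore used for depth only.

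The members, lists and tests were chosen with earlier results of these data known. Every member is named in its role, with values per library for those called, those whose genotypes did not overlap and the member of lowest p-value per role, and Hdac7 and others are given by mean or fold change. Exon lengths and positions came from GENCODE M21 on GRCm38, found for all 57 members, and promoters from RefSeq. Alternatives were 3 scalings, 2 filters, pseudocounts of 0.1 and 10, the replicate block, array weights, each library left out, a threshold of 0.1 and the authors' calls.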

Additional observations from a re-analysis of the deposited data

How the results depend on the processing

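Men1 kept its direction in every fit run and its call under quantile, upper quartile and equal-total scaling, either other filter, both pseudocounts, the replicate block and array weights. The count of members called was 1 with all libraries, 2 with equal library totals, 3 with array weights, and 5 with the replicate block, a threshold of 0.1 or the authors' deposited values. It ran from 0 to 5 in the fits without 1 library, where all genes called ran from 20 to 523 (0.135% to 3.53%). Over all genes the count was 263 (1.77%), against 269 with equal library totals (1.81%) and 482 with array weights (3.24%). With the replicate block it was 754 (5.07%), and at a threshold of 0.1 it was 753 (5.07%). In the authors' deposited table it was 815 (6.34% of the genes with an adjusted p-value there). With a minimum of 10 in every library 2.00% of genes were called, and with a pseudocount of 10 it was 1.90%. For the 172 other genes the count was 1 with a minimum of 10 in every library or a pseudocount of 10, 2 with equal totals, 4 with array weights, 7 with the replicate block or the authors' deposited values, 8 at a threshold of 0.1, and 0 to 1 without 1 library. Members below 0 numbered 19, and 17 to 23 under the alternatives. The median level of the members was 654 per kb of exon and 763 per kb of the longest transcript, by construction. The same number of paralogue pairs, 6, separated with quantile scaling too. Fits without 1 library have fewer samples; otherwise the cause was not tested. Equal library totals moved the median of all genes by 0.03. Of 357 values of the 21 members given per library, 334 kept direction and call, 19 gained a call, 4 lost one and none reversed. Only Men1 of the 21 was called in the main fit, so for the others keeping the call meant staying uncalled. The 4 losses were all of Men1. The threshold of 0.1 and the replicate block leave the fitted value as it was, so direction could not change there.

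The replicate block added Kdm6b (limma adjusted p = 0.00394), Tet2 (0.0199), Dnmt3a (0.0245) and Scmh1 (0.0466) to Men1 (0.0285). The deviations of same-numbered libraries correlated at 0.145, 0.0122 and 0.142, so 1 pair fell under 0.1. WT replicate 2 correlated more with Ikzf4-/- replicate 3 (0.0491) than with its own number, while WT replicates 1 and 3 each correlated most with their own. These values do not settle whether the cultures were paired. Replicate numbers were treated as names only, since no label says that they pair the cultures. Depth limits Tet1, the member with a mean under 400. Of members given per library and not called, leaving out 1 library also moved further log2 fold changes by over 1.5 times. These were Kmt2a (0.12) and Smarcc1 (0.05) without Ikzf4-/- replicate 3, and Dnmt1 (0.02), Ep300 (0.09) and Ctcf (0.04) without WT replicate 3. The others were Dnmt3b (-0.10 without WT replicate 2) and Smarcc2 (-0.07 without WT replicate 1). Members not given per library moved too, and for some of them the sign changed. Across these fits Ezh2 ran from -0.13 to 0.01, Ezh1 from -0.06 to 0.08, Mbd2 from -0.09 to 0.00345 and Rnf2 from -0.04 to 0.04. Kmt2d ran from 0.04 to 0.24 and Tet3 from 0.04 to 0.13.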

Other observations

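The authors' deposited table placed 7 further genes of these complexes under an adjusted p-value of 0.05, none of them called by limma, and named here after their values were seen. Lower in Ikzf4-/- cells were the BAF subunit gene Smarcd2 (5893, 5606 and 5822 in WT, 5045, 5032 and 5073 in Ikzf4-/- libraries; limma adjusted p = 0.0526), the Sin3 subunit gene Sap30 (1511, 1185 and 1480 against 845, 1147 and 1074; 0.0862) and Idh1 (419, 366 and 323 against 277, 254 and 237; 0.0621), whose enzyme makes the 2-oxoglutarate that Tet and lysine demethylases use. Higher were Smarca2, the alternative BAF ATPase (1415, 1611 and 1586 against 1764, 1947 and 1813; 0.0802), the Polycomb-associated gene Sfmbt1 (930, 957 and 910 against 1143, 1107 and 1140; 0.0537), the NuRD-associated reader gene Zmynd8 (4602, 4698 and 4410 against 5523, 5258 and 5073; 0.0616) and the coactivator gene Ncoa2 (3474, 4285 and 3757 against 4659, 4660 and 4382; 0.0920).

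The Y-linked demethylase genes Uty and Kdm5d were present in all libraries, at 726 to 845 and 1215 to 1349. Xist, the X-inactivation RNA, was at 4.26, 3.59 and 0.971 in WT and at 2.02, 85.8 and 111 in Ikzf4-/- libraries. Kdm6a, which escapes X inactivation, overlapped between genotypes in the same libraries.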
